A study of Mus musculus with 56 samples.

Results

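The 7 GABA-A receptor subunit genes described here are Gabra2, Gabra3, Gabra4 and Gabra5 (alpha subunits), Gabrb1 and Gabrb2 (beta subunits) and Gabrg3 (a gamma subunit). They were chosen by name and not by a cutoff on a measured value, but with earlier results of these data known. Every probe set annotated to one of these symbols and to no other gene was followed: 23 on the 3' arrays (Mouse430_2), 9 on the earlier gene-level arrays (MoGene 1.1 ST) and 7 on the later gene-level arrays (MoGene 2.1 ST). The 7 genes stand among 18194, 18820 and 22180 genes with a single-symbol probe set on the 3 array types.

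GABA-A receptors are chloride channels opened by the transmitter GABA, and they carry most of the fast inhibition in the cortex. A channel is built of several subunits around a pore, usually alpha and beta subunits together with a gamma or a delta subunit. The alpha subunit sets much of the drug sensitivity and placement of a channel: Gabra5 is known for receptors outside synapses in hippocampus and cortex, and Gabra4 pairs with the delta subunit Gabrd in extrasynaptic receptors. Alpha and beta subunits together form the GABA site, and gamma subunits are needed for the classical benzodiazepine site.

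All arrays hold total RNA of cortical neurons from C57BL6 mouse embryos (embryonic day 13 to 15) that had spent 7 days in vitro when treatment began. Per the labels the drug then acted for 24 or 72 h, and the title gives the time only for the 24 h arrays. The groups were topotecan at 300 nM with vehicle (3' arrays, n = 3 each), ICRF-193 at 3 µM with its own vehicle (3' arrays, n = 3 each), and topotecan at 3, 30, 150, 500 and 1000 nM (n = 1 each) and at 300 nM (n = 2) with vehicle (earlier gene-level arrays, n = 3). On the later gene-level arrays they were topotecan at 1 µM with vehicle (n = 6 each), irinotecan at 10 µM (n = 3), topotecan for 24 h and the same followed by washout (n = 1 each) with 2 shared vehicle arrays, lentiviral short hairpin RNA (shRNA) against Top1, against Top2b or scrambled (n = 3 each), DRB at 100 µM with vehicle (n = 1 each), paraquat at 10 µM (n = 1) and hydrogen peroxide at 100 µM (n = 1), which share 2 vehicle arrays. Topotecan and irinotecan are camptothecin drugs that hold topoisomerase I on DNA, ICRF-193 blocks topoisomerase II, DRB blocks transcription elongation, and hydrogen peroxide and paraquat are oxidants. The free-text descriptions contradict the titles for many arrays: those titled ICRF-193 are described as irinotecan, those titled irinotecan as a topotecan dose response, and those titled control shRNA as ICRF-193. The groups follow the titles, which match the treatment listed among the sample characteristics, so each drug named below is the one in the title. The labels do not say whether replicates came from separate cultures. The p-values therefore cover the variation among arrays alone, and the small number of arrays limits the precision. These are bulk cultures, in which fewer cells of a type and less RNA per cell cannot be told apart. All levels below are log2 of the deposited intensity, and a change is treated minus control on that scale. Groups without overlap are named as a description only, since the share of all genes without overlap was not taken. Levels of different subunits come from different probe sets and are not compared with each other.

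Array sets within a type differed in overall level. On the later gene-level arrays the mean intensity was 137.8 to 143.7 for irinotecan, the 24 h groups, their vehicle and shRNA replicates 2 and 3, 177.5 to 183.3 for shRNA replicate 1 and the topotecan 1 µM experiment, and 201.5 to 211 for the rest. All 12 pan-neuronal markers (Map2, Rbfox3, Tubb3 and others) lay above the brightness limit on the 3' and the later arrays. Of the interneuron markers measured, 13 of 18 lay above it on the 3' arrays, 15 of 18 on the earlier and 14 of 17 on the later gene-level arrays. Pvalb, Vip and Sp8 lay below it on all 3 types. Astrocyte, fibroblast and proliferating cell markers were also measurable in these cultures, 13 of 15, 11 of 12 and 11 of 12 on the later arrays.

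Of the 7 genes 6 span over 100 kb, and several lie next to other subunit genes. In RefSeq (assembly GRCm38.p6, used for names, spans and neighbours) Gabrg3 spans 671 kb on chromosome 7, Gabrb1 492 kb on chromosome 5, Gabra3 224 kb on chromosome X, Gabrb2 213 kb on chromosome 11, Gabra5 183 kb on chromosome 7, Gabra2 137 kb on chromosome 5 and Gabra4 88.6 kb on chromosome 5. Gabrg3 and Gabra5 are neighbours, with Oca2 on the other side of Gabrg3. On chromosome 5 the order is Gabrg1, Gabra2, Cox7b2, Gabra4, Gabrb1 and Commd8. Gabrb2 lies between Gabra6 and Atp10b, and Gabra3 between Magea10 and Gabrq.

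Gabra4 and Gabrb1 start 387 bases apart and are read in opposite directions, so that their RefSeq spans overlap at their starts. They are shown first because the drugs separated them, and the Gabrg3 window is shown because Gabrg3 fell most under irinotecan and topotecan at 1 µM. Each window runs from 250 bases before to 50 bases after an annotated start on the gene's own strand (RefSeq, GRCm38.p6), and capitals mark CG dinucleotides. The windows are chr5:71657671-71657970 on the plus strand for Gabrb1, chr5:71658259-71658558 on the minus strand for Gabra4 and chr7:57387166-57387465 on the minus strand for Gabrg3.
Gabrb1: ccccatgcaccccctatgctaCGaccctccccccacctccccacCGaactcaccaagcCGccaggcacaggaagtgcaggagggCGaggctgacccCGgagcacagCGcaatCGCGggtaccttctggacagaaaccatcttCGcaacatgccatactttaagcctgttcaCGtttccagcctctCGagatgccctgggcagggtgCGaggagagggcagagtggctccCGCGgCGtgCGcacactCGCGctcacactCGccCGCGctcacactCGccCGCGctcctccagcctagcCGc
Gabra4: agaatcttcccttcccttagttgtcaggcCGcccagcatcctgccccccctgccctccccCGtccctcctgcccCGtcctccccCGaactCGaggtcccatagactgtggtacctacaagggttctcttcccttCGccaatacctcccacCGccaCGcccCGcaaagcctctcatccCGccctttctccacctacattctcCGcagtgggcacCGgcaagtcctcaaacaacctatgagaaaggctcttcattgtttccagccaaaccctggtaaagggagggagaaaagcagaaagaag
Gabrg3: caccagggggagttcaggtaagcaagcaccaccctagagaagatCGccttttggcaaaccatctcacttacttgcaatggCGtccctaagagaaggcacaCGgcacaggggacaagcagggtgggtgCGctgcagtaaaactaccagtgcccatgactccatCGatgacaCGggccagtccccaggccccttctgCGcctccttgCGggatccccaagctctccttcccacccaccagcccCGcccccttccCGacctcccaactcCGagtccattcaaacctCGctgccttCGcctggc

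The Gabrb1 window held 25 CG dinucleotides, and 18.4% of the 32851 windows of the table hold at least as many. The Gabra4 window held 12 and the Gabrg3 window 13, against a median of 7 over all windows. The GC box letters GGGCGG, searched on both strands, were found in the Gabra4 and the Gabrg3 window and in 35.7% of all windows, but were not in this Gabrb1 window. The TATA box letters TATAAA, also searched on both strands, were in none of the 3 and in 13.6% of all windows. RefSeq lists windows for all 7 genes, 4 of which had a window with the GC box letters, and both Gabra3 windows held 0 CG dinucleotides.

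**Figure D1:**
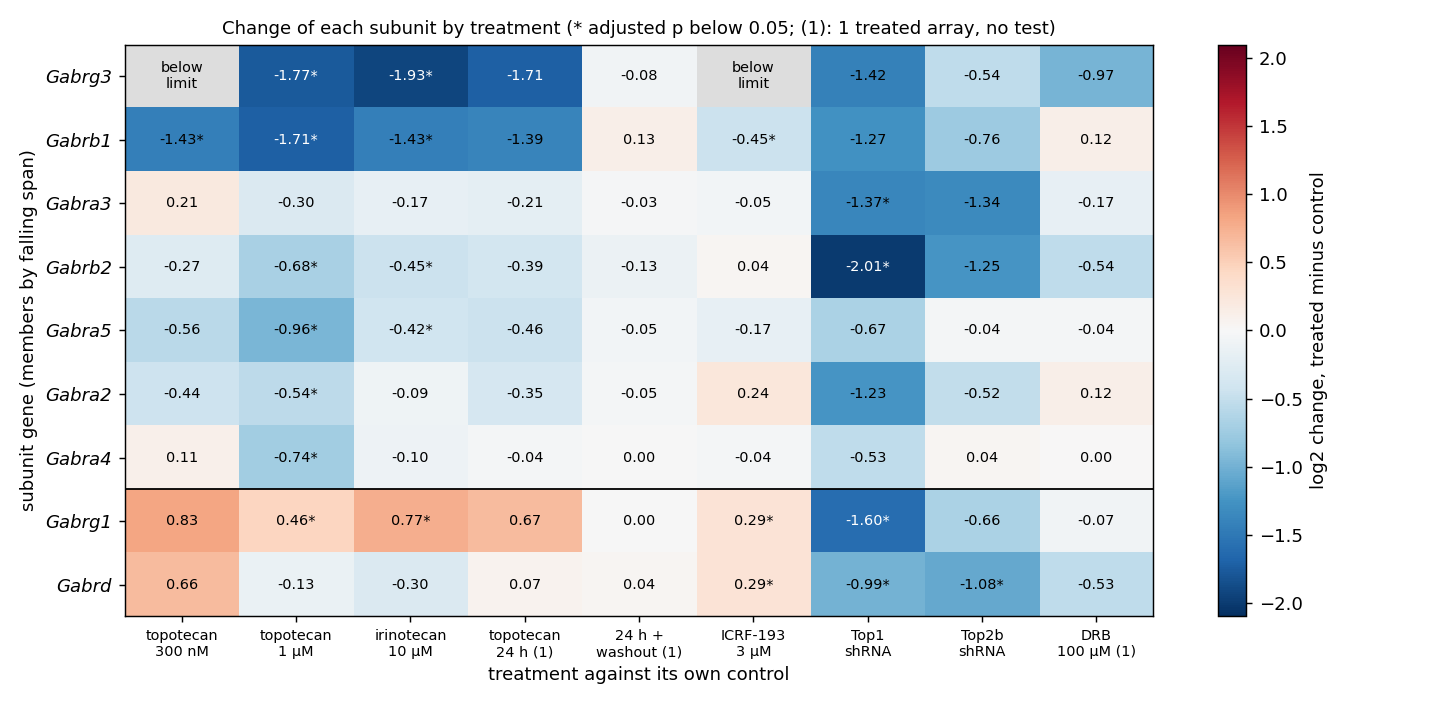
Log2 change of each subunit (rows, members by falling span above the line, 2 other subunits below it) in each treatment against its own control (columns). Blue is lower and red higher in treated cultures, and grey cells mark Gabrg3 where its probe sets lay below the brightness limit. Gabrg3 and Gabrb1 had the deepest blue under topotecan at 1 µM (-1.77 and -1.71) and irinotecan (-1.93 and -1.43). Under Top1 shRNA the members with an asterisk were Gabrb2 (-2.01) and Gabra3 (-1.37). Gabrg3 (-1.42) and Gabrb1 (-1.27) had none there. Asterisks mark adjusted p below 0.05.

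The first question was how the subunits respond to topotecan at 1 µM, the comparison with the most arrays. In topotecan cultures 6 of the 7 subunits fell and none rose (limma, Benjamini-Hochberg adjusted p below 0.05 over 13308 genes). Lower calls made up 20.8% of all genes tested and 64.4% of genes over 100 kb, and higher calls 18.3% of all genes. The median change of the 7 subunits was -0.74, against -0.01 over all genes and -0.36 over genes over 100 kb.

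Gabrg3, a gamma subunit, fell most. Its log2 level ran from 6.09 to 6.81 over the 6 topotecan arrays (6.45 ± 0.23, SD, n = 6), against 7.75 to 8.49 over the 6 vehicle arrays (8.21 ± 0.27, n = 6). The groups did not overlap, and Gabrg3 was 3.4-fold lower in topotecan cultures (log2 change -1.77, SE 0.13, limma adjusted p = 1.14e-07). Gabrb1, a beta subunit, ran from 7.83 to 8.28 with topotecan (8.03 ± 0.16) and from 9.37 to 10.02 with vehicle (9.74 ± 0.22). It was 3.27-fold lower, again without overlap (log2 change -1.71, SE 0.10, limma adjusted p = 1.86e-08).

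The other members fell less. Gabra5 ran from 9.31 to 10.02 with topotecan and from 10.22 to 10.92 with vehicle, a change of -0.96 (SE 0.13, limma adjusted p = 7.07e-05) without overlap. Gabra4 ran from 8.61 to 9.08 with topotecan and from 9.32 to 9.78 with vehicle, a change of -0.74 (SE 0.10, limma adjusted p = 4.62e-05), also without overlap. In Gabrb2 (-0.68, limma adjusted p = 0.00181) and Gabra2 (-0.54, limma adjusted p = 0.00108) the groups overlapped at 1 vehicle array, replicate 4. Gabra3 did not pass the test (8.22 ± 0.31 with topotecan, 8.51 ± 0.30 with vehicle, change -0.30, limma adjusted p = 0.149). Without vehicle replicate 4 the change of Gabra3 was -0.40 and passed (limma adjusted p = 0.0274).

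Markers of cell types moved in the same cultures, and their part in the result was not tested. Of the 12 pan-neuronal markers 9 fell and none rose, with a median of -0.32, and the mean level of the list ran from 9.56 to 10.00 with topotecan and from 9.96 to 10.38 with vehicle. The lowest array of each group in this list was topotecan replicate 6 and vehicle replicate 4. Set relative to the mean of these 12 markers on the same array, a setting chosen after the data were seen, 5 members fell: Gabrg3 by 1.36, Gabrb1 by 1.31, Gabra5 by 0.56, Gabra4 by 0.33 and Gabrb2 by 0.28 on the log2 scale (limma adjusted p = 3.5e-07 to 0.0288). Gabra2 no longer passed (-0.14, limma adjusted p = 0.138). This setting called 10409 of the 13308 genes in either direction. Astrocyte markers fell in 10 of 13 cases and rose in 1.

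Neighbouring subunits fell by unequal amounts. On each array the log2 level of Gabrb1 minus that of its head-to-head neighbour Gabra4 was -0.84 ± 0.09 with topotecan and 0.13 ± 0.11 with vehicle (SD, n = 6 each), a difference of -0.97. The same within-array value for Gabrg3 minus its neighbour Gabra5 was -3.30 ± 0.28 with topotecan and -2.49 ± 0.09 with vehicle, a difference of -0.81. Each of these differences had an exact permutation p = 0.00216, the smallest that 6 against 6 arrays can give, and 0.013 after Benjamini-Hochberg adjustment over 18 such tests (2-sided). These pairs were chosen with the members' changes known. In both pairs the longer gene fell more. With irinotecan the differences were -1.32 and -1.50, each with an exact permutation p = 0.1, the smallest that 3 against 2 arrays can give.

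**Figure D2:**
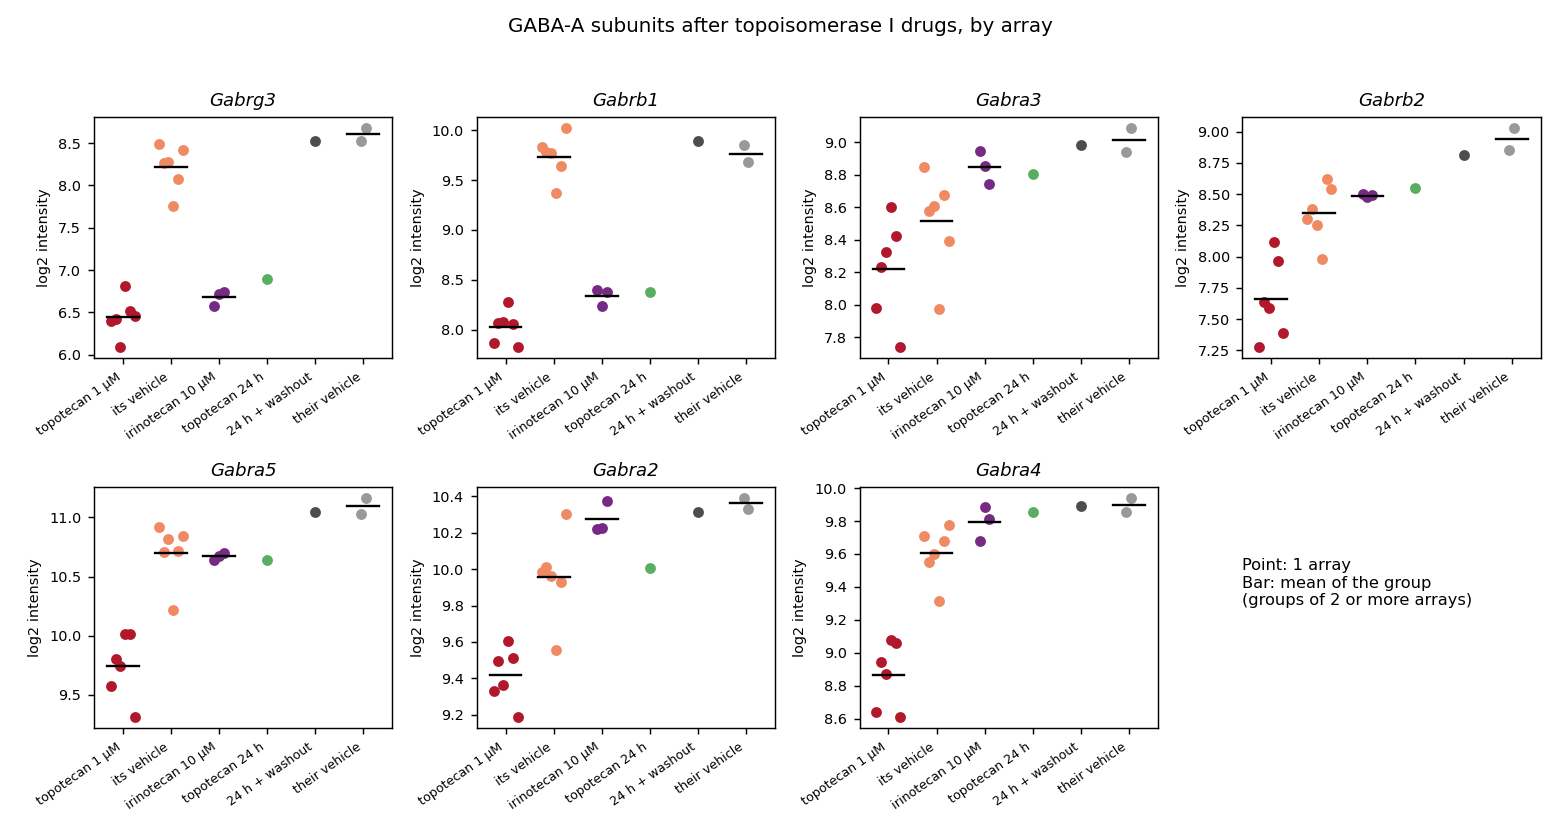
Log2 intensity (vertical axis, own range for each gene) of the 7 subunits on each later gene-level array with topotecan at 1 µM and its vehicle, and with irinotecan, topotecan for 24 h, 24 h with washout and their shared vehicle. The Gabrg3 and Gabrb1 points with drug sit well below both vehicle groups (Gabrg3 at 6.09 to 6.90 with drug), and the washout point lies beside its vehicle.

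Irinotecan at 10 µM gave the same order at the top. Of the 7 subunits 4 fell and none rose, against 11.7% lower and 16.5% higher calls among all genes and 48.2% lower calls among genes over 100 kb. Gabrg3 had 6.58, 6.72 and 6.74 with irinotecan, against 8.53 and 8.68 with vehicle, and was 3.8-fold lower (log2 change -1.93, SE 0.09, limma adjusted p = 2.58e-05). Gabrb1 had 8.40, 8.24 and 8.38 with irinotecan, against 9.85 and 9.68 with vehicle, and was 2.69-fold lower (-1.43, SE 0.09, limma adjusted p = 7.72e-05). Neither gene's groups overlapped.

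Gabrb2 (8.50, 8.48 and 8.49 with irinotecan, 8.85 and 9.03 with vehicle) changed by -0.45 (SE 0.08, limma adjusted p = 0.00753). Gabra5 (10.64, 10.68 and 10.70 with irinotecan, 11.03 and 11.16 with vehicle) changed by -0.42 (SE 0.08, limma adjusted p = 0.00775). Both calls rest on vehicle replicate 2: without it Gabrb2 changed by -0.36 (limma adjusted p = 0.0557) and Gabra5 by -0.36 (limma adjusted p = 0.0597). Gabra2 (-0.09), Gabra3 (-0.17) and Gabra4 (-0.10) did not pass (limma adjusted p = 0.456, 0.216 and 0.405), and their groups overlapped. Of the pan-neuronal markers 2 of 12 fell and 1 rose, with a median of -0.11. Relative to their mean the same 4 subunits fell (Gabrg3 -1.78, Gabrb1 -1.28, Gabrb2 -0.30 and Gabra5 -0.28, limma adjusted p = 3.65e-05 to 0.0214). This setting called 6592 of the 13308 genes in either direction. The concentrations of irinotecan and topotecan differ, so the 2 drugs are set side by side without a test: Gabra4 changed by -0.10 with irinotecan and -0.74 with topotecan at 1 µM, and Gabra2 by -0.09 and -0.54.

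The washout arrays ask whether levels return after the drug is removed. With 1 array each there is no test, and past 1.5-fold is used as a description. After 24 h of topotecan, at a dose the title does not give, Gabrg3 was at 6.90 and Gabrb1 at 8.38, against vehicle means of 8.61 and 9.77 (changes of -1.71 and -1.39). These 2 were past 1.5-fold lower and the other 5 were not, at -0.46 to -0.04, where 5.28% of all genes and 26.5% of genes over 100 kb were past 1.5-fold lower and 4.63% of all genes were past it higher.

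After washout all 7 subunits lay near vehicle. Gabrg3 was at 8.53, against 8.53 and 8.68 in the 2 vehicle arrays, and Gabrb1 at 9.90, against 9.85 and 9.68. The 7 changes ran from -0.13 to 0.13 and none was past 1.5-fold, where 0.421% of all genes and 0.453% of genes over 100 kb were past it lower and 0.398% of all genes higher. The mean of the pan-neuronal markers was 10.31 at 24 h, 10.43 after washout and 10.46 and 10.47 with vehicle.

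Across doses the decline of Gabrg3 and Gabrb1 was not called. Gabrg3 was at 9.89, 9.84 and 10.00 with vehicle, 9.99 at 3 nM, 10.01 at 30 nM, 9.78 at 150 nM, 9.59 and 9.64 at 300 nM, 9.45 at 500 nM and 8.36 at 1000 nM. Gabrb1 was at 10.54, 10.48 and 10.89 with vehicle, 10.78 at 3 nM, 10.81 at 30 nM, 10.57 at 150 nM, 10.51 and 10.50 at 300 nM, 10.25 at 500 nM and 9.32 at 1000 nM. In both genes the 1000 nM array was the lowest of the 10 and the 500 nM array the next lowest.

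Fitted against dose rank, the slope was -0.17 log2 per rank for Gabrg3 (SE 0.05, limma adjusted p = 0.0657) and -0.14 for Gabrb1 (SE 0.05, limma adjusted p = 0.124). None of the 7 passed in either direction, although Gabrg3, Gabrb1 and Gabra3 had an unadjusted limma p of 0.00308, 0.0109 and 0.0115. Lower calls made up 1.95% of all genes and 9.22% of genes over 100 kb, and higher calls 1.51% of all genes. The 1000 nM array and vehicle replicates 1 and 2 stood apart from the other 7 arrays: their astrocyte marker mean was 8.58, 9.67 and 9.68, against 7.38 to 8.00 elsewhere. Their pan-neuronal mean, over the 10 markers measured there, was 10.997, 11.13 and 11.16, against 11.34 to 11.44 elsewhere. This split comes from expression values and not from a labelled batch. Gabra2 followed that split, at 8.93 at 1000 nM and 9.02 and 9.06 in vehicle 1 and 2, against 9.46 to 9.74 on the other 7 arrays.

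Without those 3 arrays 3 members fell with dose and 1 rose. Of the vehicle arrays only replicate 3 remained, and 1127 of 11292 genes were called in either direction. The slopes were -0.12 for Gabrg3 (limma adjusted p = 0.0061), -0.12 for Gabrb1 (0.00415), -0.05 for Gabrb2 (0.0454) and 0.10 for Gabra3 (0.0264). Gabrg3 also passed without the 1000 nM array alone (-0.09, limma adjusted p = 0.0406). Relative to the pan-neuronal markers Gabrg3 (-0.16, limma adjusted p = 0.0129) and Gabrb1 (-0.13, limma adjusted p = 0.0256) passed over all 10 arrays. This setting called 586 of 11292 genes in either direction. The 3 Gabrb2 probe sets had slopes of -0.05, -0.09 and -0.08.

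**Figure D3:**
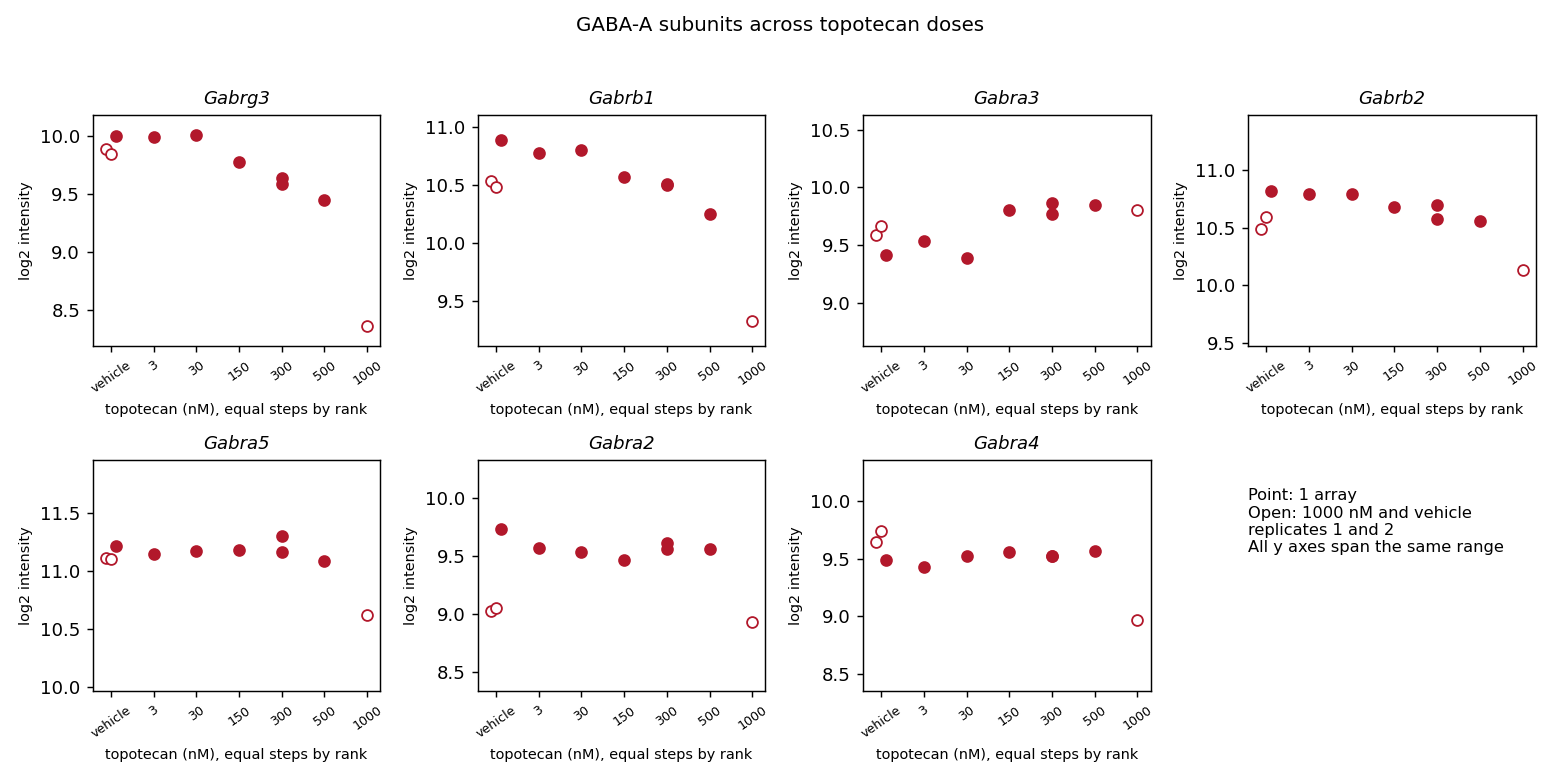
Log2 intensity of the 7 subunits (vertical axes of equal length) by topotecan dose in nM, from vehicle on the left to 1000 nM, with equal steps by rank. Open points are the 1000 nM array and vehicle replicates 1 and 2. Gabrg3 lies at 9.84 to 10.00 with vehicle and at 8.36 at 1000 nM, and Gabra2 is low on all 3 open points.

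On the 3' arrays topotecan at 300 nM lowered 1 member. Of the 6 members bright enough to be tested only Gabrb1 fell and none rose, against 3.1% lower and 1.3% higher calls among 10916 genes and 18.5% lower calls among genes over 100 kb. Gabrb1 had 11.15, 10.86 and 10.91 with topotecan, against 12.09, 12.58 and 12.55 with vehicle, and was 2.7-fold lower without overlap (log2 change -1.43, SE 0.17, limma adjusted p = 0.00729). The other 2 bright Gabrb1 probe sets changed by -1.78 and -1.61 (limma adjusted p = 0.0103 and 0.0111 over 34958 probe sets), and 1 more was dim on every array (3.09 to 3.30 in this experiment). Gabra5 (-0.56), Gabra2 (-0.44), Gabrb2 (-0.27), Gabra3 (0.21) and Gabra4 (0.11) did not pass, and their groups overlapped. No pan-neuronal marker passed, and 5 of 13 astrocyte markers fell.

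Gabrg3 could not be followed on the 3' arrays at this brightness. All 4 of its probe sets lay below the limit of 7.04, with means over the 12 arrays of 4.25 to 5.78. Fitted without the limit they changed by -0.41 to -0.15 with topotecan, and none passed.

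Gabrb1 also fell in the arrays titled ICRF-193 at 3 µM, the topoisomerase II inhibitor. Gabrb1 had 11.76, 11.66 and 11.66 with ICRF-193, against 12.19, 12.11 and 12.12 with vehicle (log2 change -0.45, SE 0.04, limma adjusted p = 0.000994), 1.36-fold lower without overlap. It was the only one of 6 members to fall, where 10.3% of all genes and 23.7% of genes over 100 kb fell, and none rose, where 8.29% of all genes did. The other bright Gabrb1 probe sets changed by -0.51 and -0.57. One dim Gabrg3 probe set had 4.74, 4.65 and 4.43 with ICRF-193, against 5.04, 5.25 and 4.99 with vehicle (-0.49, limma adjusted p = 0.0355 over all probe sets), and the other 3 did not pass.

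Gabra2 did not pass in this fit (9.21, 9.23 and 9.13 with ICRF-193, 8.92, 9.11 and 8.82 with vehicle, change 0.24, limma adjusted p = 0.0628), although the groups did not overlap. Same-numbered arrays deviated together in this experiment, so the fit with the replicate number as a block is given beside it. With the block Gabra2 rose (limma adjusted p = 0.0163), Gabra5 fell (-0.17, limma adjusted p = 0.044) and Gabrb1 fell (limma adjusted p = 0.000629). That fit called 2889 of the 10916 genes in either direction. Gabra2 also passed without vehicle replicate 2 (0.32, limma adjusted p = 0.018), and Gabra5 without vehicle replicate 3 (-0.25, limma adjusted p = 0.0215). Those 2 fits called 1239 and 2822 of the 10916 genes in either direction. Gabra3, Gabra4 and Gabrb2 changed by -0.05, -0.04 and 0.04 and did not pass. In these cultures 9 of 13 astrocyte markers fell, and of the 12 pan-neuronal markers 3 rose and 1 fell.

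The topotecan effect on Gabrb1 was larger than the ICRF-193 effect by 0.98 on the log2 scale (difference -0.98, SE 0.18, limma adjusted p = 0.0137). It was the only member of 6 whose effects differed in this direction, where 2.41% of all genes and 14.5% of genes over 100 kb did, and none differed in the other direction, where 1.19% of all genes did. The difference did not pass with the replicate number as a block (-0.98, limma adjusted p = 0.0964). Same-numbered arrays deviated together for ICRF-193 but not for topotecan. Nor did the difference pass without ICRF-193 replicate 1 (-0.95, limma adjusted p = 0.0503). Without topotecan vehicle replicate 1 Gabra2 differed too (-0.91, limma adjusted p = 0.0164). The drugs, doses and array sets differ together here.

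In the shRNA arrays the targeted genes were read first. Top1 was at 7.62, 8.39 and 8.29 with Top1 shRNA, against 8.98, 8.46 and 8.56 with control shRNA (change -0.57, limma adjusted p = 0.193). Top2b was at 8.62, 6.87 and 6.80 with Top2b shRNA, against 9.30, 8.39 and 8.17 with control shRNA (-1.19, limma adjusted p = 0.22). For Top1 the groups did not overlap, for Top2b replicate 1 lay within the control range, and neither gene passed.

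With Top1 shRNA 2 of the 7 subunits fell and none rose, where 5.79% of all genes and 12.5% of genes over 100 kb fell and 6.08% of all genes rose. The 2 called were not Gabrg3 and Gabrb1, which the drugs lowered most. Those changed by -1.42 and -1.27 without passing, and no test compared the changes of different members. Gabrb2 had 7.63, 6.96 and 7.67 with Top1 shRNA, against 9.72, 9.23 and 9.35 with control shRNA, and was 4.03-fold lower without overlap (log2 change -2.01, SE 0.295, limma adjusted p = 0.00414). Gabra3 had 8.59, 7.22 and 7.35 with Top1 shRNA, against 9.10, 9.28 and 8.88 with control shRNA (-1.37, SE 0.34, limma adjusted p = 0.0293). The Gabra3 call was lost without any 1 of the 3 control arrays or of Top1 shRNA replicates 2 and 3 (limma adjusted p = 0.0551 to 0.117).

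Gabrb1 (9.24, 8.24 and 9.13 with Top1 shRNA, 10.66, 9.91 and 9.85 with control shRNA) and Gabrg3 (7.61, 5.94 and 7.80 with Top1 shRNA, 8.26, 8.67 and 8.68 with control shRNA) had changes of -1.27 and -1.42 and did not pass (limma adjusted p = 0.0547 and 0.0657). Neither gene's groups overlapped. Gabra2 (-1.23), Gabra5 (-0.67) and Gabra4 (-0.53) did not pass either. Of these, Gabra5 also had groups without overlap, at limma adjusted p = 0.36. Without Top1 shRNA replicate 1, 2486 of 13308 genes were called in either direction, and 5 members fell. These now included Gabrb1 (-1.45, limma adjusted p = 0.0434), Gabrg3 (-1.67, 0.0485) and Gabra4 (-0.88, 0.0313). Gabrb1 also passed without Top2b shRNA replicate 1 (limma adjusted p = 0.0284), which enters the same fit, and under quantile normalization, the 60th percentile filter, log2 of intensity plus 16 and a trend and robust prior (limma adjusted p = 0.0266 to 0.0456).

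Replicate 1 of each shRNA group differed from replicates 2 and 3 in overall intensity, as given above, and is treated as another array set, which the labels do not name. With the set as a block 5 members fell under Top1 shRNA: Gabra2 (limma adjusted p = 0.0475), Gabra3 (0.00957), Gabrb1 (0.00468), Gabrb2 (0.00164) and Gabrg3 (0.0432). That fit called 3777 of the 13308 genes in either direction. Within the set of replicates 2 and 3 alone, a setting chosen after the data were seen, 6 members fell and Gabra5 did not pass (-0.85, limma adjusted p = 0.109). Of all 13308 genes 5944 were called in either direction within this set. Top1 itself was at 8.39 and 8.29 there, against 8.46 and 8.56 with control shRNA, while in replicate 1 it was at 7.62, against 8.98. In the set of replicates 2 and 3 the changes of Gabrb2 and Gabra3 were -1.97 and -1.80. The set of replicate 1 holds 1 array per group and allows no test.

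Cell type markers moved in the same arrays, and their part in the result was not tested. The mean of the pan-neuronal markers was 9.72, 8.95 and 9.42 with Top1 shRNA, against 10.22, 10.39 and 10.41 with control shRNA, with a median change of -0.92 and 3 of 12 passing. Excitatory neuron markers fell in 6 of 12 cases. Of 11 fibroblast and meningeal markers 8 rose, their mean at 7.24 to 7.82 with Top1 shRNA and 5.81 to 6.60 with control shRNA, and of 11 proliferating cell genes 3 rose. Relative to the pan-neuronal markers only Gabrb2 still fell (-1.03, limma adjusted p = 0.0309), and Gabra3 (-0.39), Gabrb1 (-0.29) and Gabrg3 (-0.44) did not pass (limma adjusted p = 0.368, 0.585 and 0.324). This setting called 5384 of the 13308 genes in either direction.

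With Top2b shRNA none of the 7 passed in either direction, where 1.12% of all genes and 2.01% of genes over 100 kb fell and 1.99% of all genes rose. Of the 7, 2 had an unadjusted p below 0.05. Gabrb2 (7.67, 8.43 and 8.46 with Top2b shRNA, 9.72, 9.23 and 9.35 with control shRNA) had a change of -1.25 (limma adjusted p = 0.0522). Gabra3 (7.69, 7.65 and 7.90 with Top2b shRNA, 9.10, 9.28 and 8.88 with control shRNA) had a change of -1.34 (limma adjusted p = 0.0658). In both the groups did not overlap, a description with no share over all genes beside it. Same-numbered arrays deviated together here, but replicate 1 is also the other array set. Whether this comes from pairing by number or from the set was not tested. With the replicate number as a block both fell (limma adjusted p = 0.0328 and 0.0354). With the array set as a block and within replicates 2 and 3 the same 2 passed (limma adjusted p = 0.0207 and 0.0184 with the block). Of 13308 genes 1352 were called in either direction with the replicate block, 1982 with the set block and 3003 within replicates 2 and 3. Gabra3 also passed without Top1 shRNA replicate 1, which enters the same fit (limma adjusted p = 0.0133).

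Gabra4 and Gabra5 changed by 0.04 and -0.04 with Top2b shRNA and did not pass. Gabra2 was at 7.62 in replicate 1, against 10.28 and 10.61 in replicates 2 and 3, and at 9.39, 10.44 and 10.24 with control shRNA. The pan-neuronal mean was 9.36, 9.92 and 10.01 with Top2b shRNA, and 4 of 11 fibroblast and meningeal markers rose. Relative to the pan-neuronal markers Gabrb2 changed by -0.67 and Gabra3 by -0.76, and neither passed (limma adjusted p = 0.256 and 0.234).

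Between Top1 and Top2b shRNA no member passed, and 0% of the 13308 genes did (limma). Gabrb2 had a change of -0.76 (limma adjusted p = 0.77) and was the only member with an unadjusted p below 0.05. Within replicates 2 and 3 alone Gabra2 (-1.32), Gabra4 (-0.96) and Gabrb2 (-1.13) were lower with Top1 shRNA than with Top2b shRNA (limma adjusted p = 0.0289, 0.0267 and 0.0249). There 1888 of the 13308 genes were called in either direction.

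**Figure D4:**
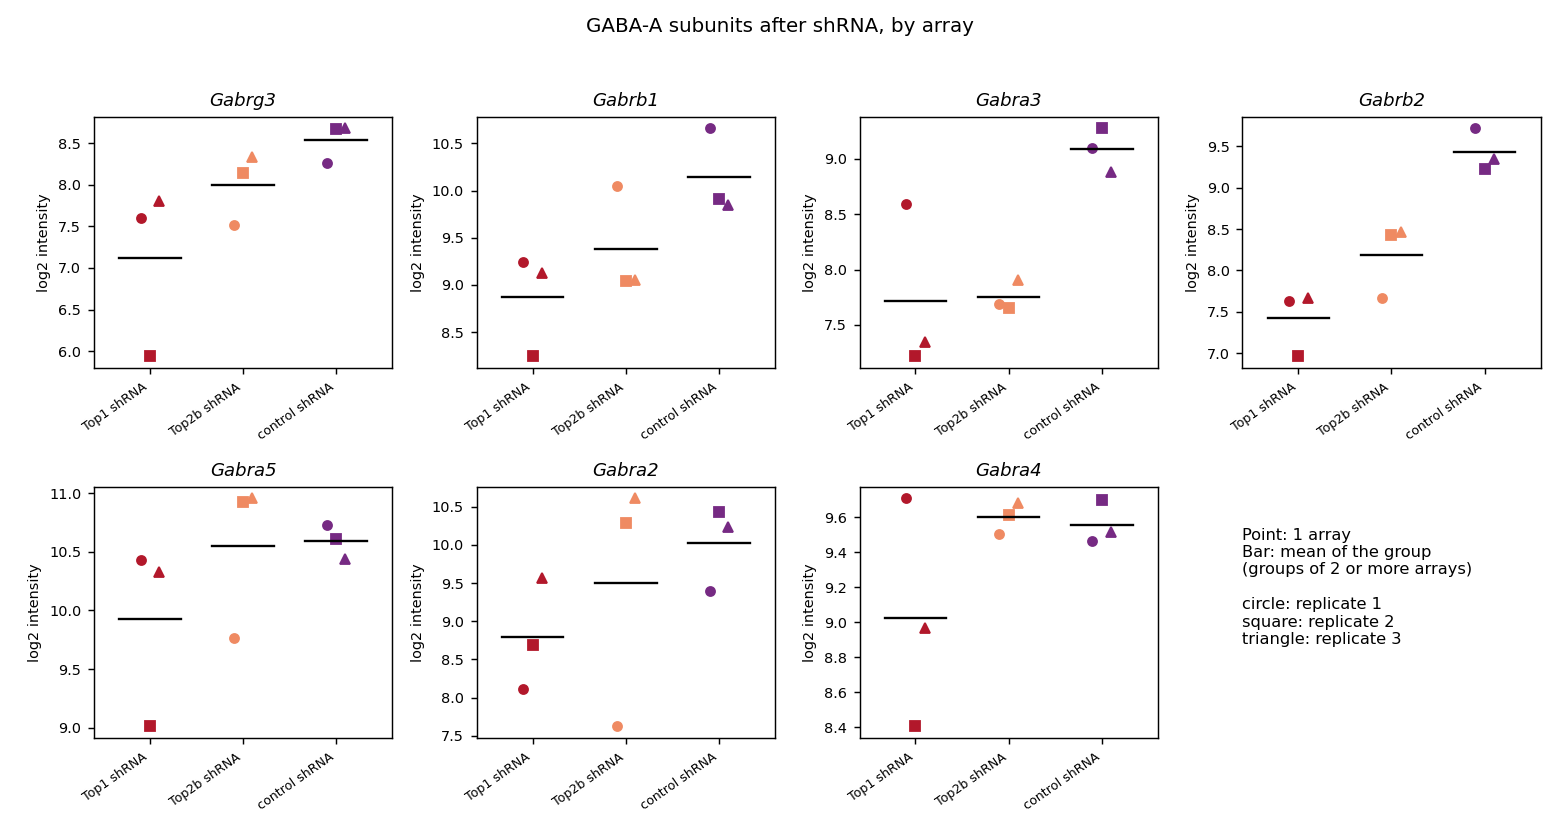
Log2 intensity (vertical axis, own range for each gene) of the 7 subunits with Top1, Top2b and control shRNA, 1 point per array, the shape giving the replicate number and the bar the mean. Gabrb2 and Gabra3 lie below every control array with both shRNAs, and Gabra2 with Top2b shRNA splits into 7.62 and 10.28 to 10.61.

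With DRB at 100 µM many genes were lower, 37% of all and 43.5% of those over 100 kb past 1.5-fold, against 12.2% of all past it higher, with 1 array each and no test. Of the 7 members 1 was past 1.5-fold lower and none higher: Gabrg3 was at 7.93 with DRB and at 8.90 with vehicle (-0.97). Gabrb2 was at 8.79 with DRB and at 9.33 with vehicle (-0.54). Gabrb1, the other very long member, was at 10.58 with DRB and at 10.45 with vehicle (0.12), and the other 4 changed by -0.17 to 0.12. The deposited values had been processed with RMA, and mean intensity was 201.5 with DRB and 208.5 with vehicle. These changes are therefore relative to the other genes, and a loss of total RNA would not show in them.

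In the oxidant experiment the 2 vehicle arrays differed from each other, and the counts turn on which is used. Gabra3 was at 8.90 with hydrogen peroxide and 9.67 with paraquat, against 6.83 in vehicle 1 and 9.67 in vehicle 2. Gabrg3 was at 8.32 with hydrogen peroxide and 8.93 with paraquat, against 6.93 in vehicle 1 and 8.94 in vehicle 2. Both treated arrays thus lay between the vehicles or at the upper one. The pan-neuronal mean was 9.78 in vehicle 1 and 10.87 in vehicle 2, and the proliferating cell gene mean 8.23 and 6.98. Against the vehicle mean 1 member was past 1.5-fold higher with hydrogen peroxide and 3 with paraquat, where 7.93% and 13.7% of all genes were. None was past 1.5-fold lower with either, where 5% and 7.15% of all genes and 4.98% and 7.85% of genes over 100 kb were. Without vehicle 1 the counts were 0 and 0 higher, with 3 lower under hydrogen peroxide, and without vehicle 2 they were 5 and 6 higher. The share of all genes past 1.5-fold was not taken in these settings. The counts are therefore not read as a result about these subunits.

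The neighbouring subunit Gabrg1, a gamma subunit of 91.6 kb at the end of the chromosome 5 cluster, went the other way with the drugs. It ran from 7.86 to 8.58 with topotecan at 1 µM and from 7.44 to 7.89 with vehicle, and rose by 0.46 (SE 0.11, limma adjusted p = 0.00497). With irinotecan it had 8.65, 8.48 and 8.62, against 7.90 and 7.73 with vehicle, and rose by 0.77 (limma adjusted p = 0.00134). It rose with ICRF-193 (0.29, limma adjusted p = 0.0155) and with topotecan dose (0.13 per rank, limma adjusted p = 0.0251), and was 0.83 higher with topotecan at 300 nM without passing (limma adjusted p = 0.0515). It was at 8.49 after 24 h of topotecan and 7.81 after washout. With Top1 shRNA it fell, at 6.77, 6.31 and 6.53, against 8.46, 7.98 and 7.96 with control shRNA (-1.60, limma adjusted p = 0.00389).

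Of 9 other GABA-A subunits measured on the later arrays 4 lay above the limit of 5.01. Besides Gabrg1, the epsilon subunit Gabre rose with topotecan at 1 µM (0.45, limma adjusted p = 0.00198), and Gabrd and the rho subunit Gabrr1 did not pass (-0.13 and -0.12). Gabrd fell with Top1 shRNA (-0.99, limma adjusted p = 0.0293) and Top2b shRNA (-1.08, limma adjusted p = 0.0454). Its means there, 5.20 and 5.12, lay close to the limit, against 6.20 with control shRNA. Gabrd rose with ICRF-193 (0.29, limma adjusted p = 0.00758).

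**Figure D5:**
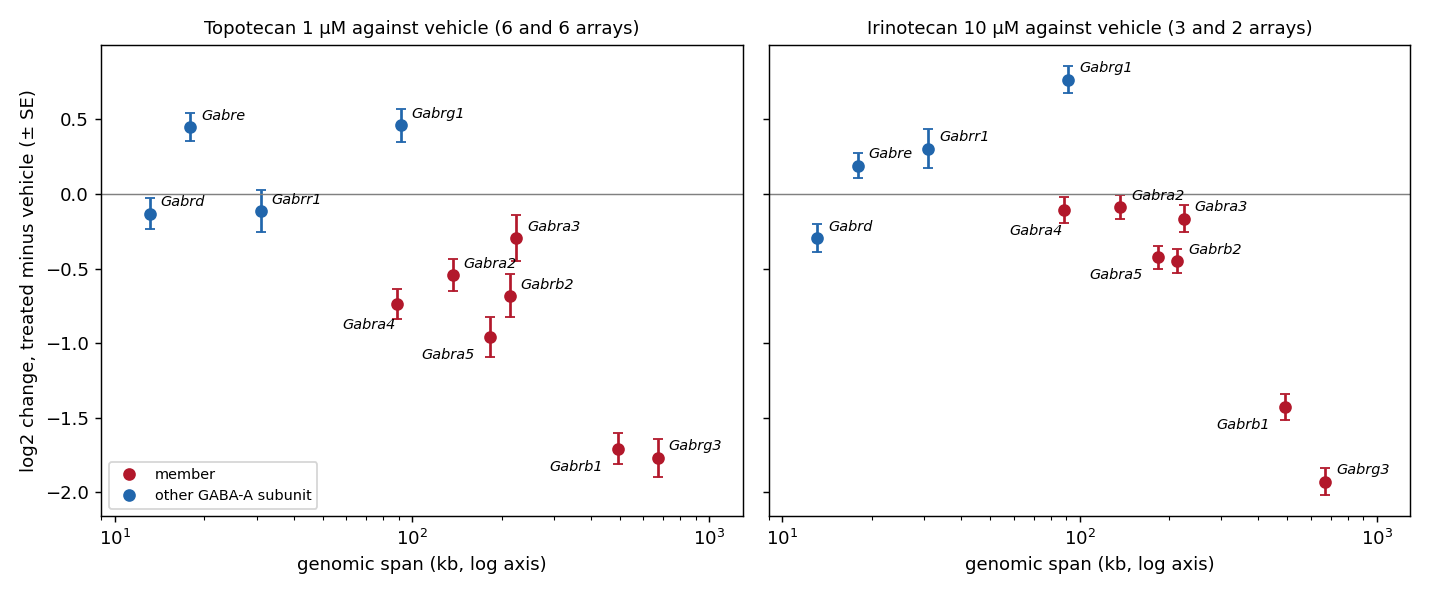
Log2 change (± SE) of each measured subunit above the brightness limit against its RefSeq span in kb (log axis), for topotecan at 1 µM (left) and irinotecan (right). The longest members, Gabrg3 and Gabrb1, lie at -1.43 to -1.93, and Gabrg1 at 91.6 kb lies above zero beside Gabra4 at 88.6 kb. Gabra3, the next longest at 224 kb, lies at -0.30 (left) and -0.17 (right).

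The genes of scaffold and accessory proteins of the inhibitory postsynapse were read as a list. Of 11 tested scaffold and accessory genes 3 fell and 1 rose with topotecan at 1 µM, where 20.8% of all genes fell and 18.3% rose. Mdga2, a membrane protein that binds neuroligins, fell by 2.67 on the log2 scale (limma adjusted p = 6.07e-10), Gphn, which encodes the scaffold gephyrin, by 1.49 (limma adjusted p = 8.4e-09) and Dmd, which encodes dystrophin, by 0.60 (limma adjusted p = 1.4e-06). Mdga1 rose by 0.58 (limma adjusted p = 0.00343). The same 4 genes were called in the same directions with irinotecan (Mdga2 -2.89, Gphn -1.79, Dmd -0.98, Mdga1 1.04). Mdga2, Gphn and Dmd also fell with topotecan at 300 nM (-2.49, -1.60 and -0.71), with ICRF-193 (-0.58, -0.29 and -0.51) and with topotecan dose. With ICRF-193 Nlgn2 and Dag1 fell too (both -0.19, limma adjusted p = 0.0173 and 0.0412), 5 of 10 tested genes of the list, where 10.3% of all genes fell. With Top1 shRNA another 3 fell: Slitrk3, an adhesion protein of inhibitory synapses (-2.03, limma adjusted p = 0.0168), Shisa7, a receptor auxiliary subunit (-1.58, limma adjusted p = 0.0119), and Iqsec3 (-0.92, limma adjusted p = 0.0236).

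Among 14 traffic and anchoring genes 6 fell and 2 rose with topotecan at 1 µM, with a median of -0.12, where 20.8% of all genes fell and 18.3% rose. Plcl2 (-0.83), Plcl1 (-0.76) and Nsf (-0.61) fell most, and Hap1 rose by 0.50 (limma adjusted p = 4.8e-05, 2.78e-05, 8.83e-05 and 0.000848). Of 6 genes of GABA synthesis, transport and breakdown 4 fell: the transporter Slc6a11 (-0.76), the vesicular transporter Slc32a1 (-0.64), the synthetic enzyme Gad2 (-0.49) and the breakdown enzyme Abat (-0.24). With irinotecan Slc32a1, Gad1 and Gad2 fell (-0.76, -0.57 and -0.53). Interneuron markers fell in 8 of 14 cases with each of these 2 drugs, with medians of -0.47 and -0.45, and their part in these changes was not tested. Gad1, Gad2 and Slc32a1 are in both lists and make up 2 of these 8 markers with topotecan and 3 with irinotecan. Of 7 chloride transport genes 1, the kinase Stk39, fell with topotecan at 1 µM (-0.69, limma adjusted p = 2.24e-05).

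Over the 20 treated later gene-level arrays the members did not follow one common pattern. For each array the log2 change from the mean of its own controls was taken. The Pearson correlation of these changes is a description, over arrays that share sets and controls. It was 0.81 between Gabrb1 and Gabrg3, 0.84 between Gabra5 and Gabrg3, 0.87 between Gabra4 and Gabra5 and 0.89 between Gabra3 and Gabrb2, but 0.14 between Gabra2 and Gabrb1. The genes most alike in these changes were Ryr2 (0.97) and Dlgap1 (0.96) for Gabrg3, Ntm (0.95) and Tmem178b (0.94) for Gabrb1, Apba1 (0.95) and Slc8a1 (0.94) for Gabra5, and Trim37 (0.91) and Dclk1 (0.88) for Gabra4. For Gabra3 they were Gnaz and Ndufaf5 (both 0.97), for Gabrb2 Rab6b (0.97) and Atxn7l3 (0.96), and for Gabra2 Wsb2 and the neurofilament gene Nefl (both 0.92).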

How the data were processed

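The authors deposited 1 intensity value per probe set and array, on a linear scale; per the submitters' processing notes they used Affymetrix Expression Console and RMA, whose versions are not given in the sources used here. Log2 of these intensities was taken here. Probe sets with 1 gene symbol were used (34958 of 45101, 21218 of 35556 and 23521 of 41345), the brightest per gene, and genes below the 40th percentile of mean log2 were left out (limits 7.04, 6.02 and 5.01), which kept 10916, 11292 and 13308 genes. Each comparison was fitted with limma 3.58.1 in R 4.3.3 (lmFit, eBayes, 2-sided, Benjamini-Hochberg, threshold 0.05) on its own experiment's arrays, the 3 shRNA groups in 1 fit. A second fit used every probe set. Whether same-numbered arrays deviate together was read from the correlation of their deviations. All were over 0.1 for ICRF-193 (0.225 to 0.382), Top2b against control shRNA (0.35 to 0.448) and Top1 against Top2b shRNA (0.204 to 0.438), but not elsewhere. Arrays of different numbers were not compared in this way, so the correlation cannot show that the numbers pair cultures. Members, lists, named genes (the members, other measured subunits, up to 4 called genes of each list, the 2 most correlated genes and the nearest genes) and tests were chosen with earlier results of these data known. Tested on simulated data, limma returned the simulated size of change, but made no calls at the spread of the shRNA arrays, so genes that missed the threshold there may still differ. Some items are not reported here.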

Additional observations from a re-analysis of the deposited data

Results flagged for a closer look

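Gabra5 in vehicle replicate 4 of the topotecan 1 µM experiment stood apart from the other vehicle arrays, at a log2 level of 10.22 with the nearest vehicle array at 10.71. This was the only such value in 14 tests, each of 1 subunit in 1 group of 6 arrays, and chance gives about 1 in 20. The same array had the lowest pan-neuronal marker mean of its group, 9.96 against 10.30 to 10.38 on the other 5 vehicle arrays. Gabrb1 responded more to topotecan at 300 nM than to ICRF-193, by -0.98 on the log2 scale in a direct test of the difference (SE 0.18, limma adjusted p = 0.0137). The call was lost with the replicate block (limma adjusted p = 0.0964) and without ICRF-193 replicate 1 (limma adjusted p = 0.0503).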

How the results depend on the processing

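Of the alternative counts of members called, 317 were within 1.5 times the reported count, which can hide a single changed call, and 43 were not. Of the alternative values of single members 1144 kept their direction and their side of the threshold, or for single arrays moved little, 13 lost the call, 50 gained it, 2 moved and 3 reversed. The count of members that fell with topotecan at 1 µM stayed between 5 and 7. With topotecan at 300 nM it was 0 with the replicate block, although same-numbered arrays did not deviate together there. With ICRF-193 the members that rose numbered 1 under quantile normalization, the 60th percentile filter, the trend and robust prior and the replicate block. Those that fell numbered 2 with the block and relative to the pan-neuronal markers. These 2 settings called 2889 and 3551 of 10916 genes in either direction. Over the ICRF-193 and vehicle arrays left out 1 to 2 members fell and 0 to 1 rose. For the difference of effects the count was 0 with the replicate block and 0 to 2 over the arrays left out. With irinotecan it was 2 to 4 over the arrays left out. With Top1 shRNA it was 3 instead of 2 under quantile normalization, the 60th percentile filter, log2 of intensity plus 16 and the trend and robust prior and without Top2b shRNA replicate 1, where Gabrb1 passed too, 1 without the filter and relative to the pan-neuronal markers, 4 with the replicate block, 5 with the array set block, 6 within replicates 2 and 3, and 1 to 5 over the arrays left out. With Top2b shRNA it was 1 under quantile normalization, log2 of intensity plus 16 and the trend and robust prior, 2 with the 60th percentile filter, the replicate block, the array set block and within replicates 2 and 3, and 0 to 1 over the arrays left out. Top1 against Top2b shRNA gave 3 lower within replicates 2 and 3. The dose trend gave 1 lower with the 60th percentile filter, 2 relative to the pan-neuronal markers, 3 lower and 1 higher without the 1000 nM array and vehicle 1 and 2, and 0 to 1 over the arrays left out. Hydrogen peroxide gave 0 to 3 lower and 0 to 5 higher and paraquat 0 to 6 higher over the vehicle arrays left out. No share over all genes was taken beside these counts. Without vehicle 1 Gabra3 with hydrogen peroxide (-0.77) and Gabrb2 (-0.001) and Gabrg3 (-0.009) with paraquat reversed, and without vehicle 2 they were 2.07, 1.245 and 2.005. The number of genes called over all genes tested shifted between settings too. The cause of these shifts was not tested. Replicate blocks changed no other count by this measure. Probe sets near background, such as those of Gabrg3 on the 3' arrays, limit what can be read.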
